A study of Arabidopsis thaliana with 12 samples.

Results

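Glutathione transferases join the tripeptide glutathione to reactive or foreign molecules, and vacuolar transporters then remove the conjugates from the cytosol. The tau class (GSTU genes) and the phi class (GSTF genes) are the large plant classes, and many of their members are known to be switched on by herbicide safeners, oxidised lipids, salicylate or other chemical stress. TGA transcription factors and their partner SCL14 are known to act at promoters of such detoxification genes. Occupancy of RNA polymerase II is described here for the 41 tau and phi genes of Arabidopsis thaliana, GSTU1 to GSTU28 and GSTF2 to GSTF14, chosen by gene identifier. They were 28 tau and 13 phi genes among 33323 nuclear genes in the whole gene counts, and all 41 were also present in the counts of the transcription start site (TSS) window and of the gene body.

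Seedlings of the Columbia ecotype were used for chromatin immunoprecipitation and sequencing at an age of 10 days, with antibodies to the polymerase phosphorylated at serine 2 (S2P, carried mostly by elongating polymerase) or at serine 5 (S5P, carried mostly by polymerase near the TSS). All plants carried the tfIIs-1 insertion (SALK_056755) in the gene for the elongation factor TFIIS and an estradiol-inducible GFP fusion of that factor, whose promoter and number of lines no source used here gives. Mock plants received ethanol and induced plants 2 mM β-estradiol, both for 24 h, with 3 libraries in each of 4 groups (S2P mock, S2P induced, S5P mock, S5P induced). Per the labels, induced plants of the S2P libraries expressed GFP-TFIIS, and those of the S5P libraries its mutated form GFP-TFIISmut. Antibody and induced protein therefore cannot be told apart, and neither can a response to estradiol and a response to the protein, since no plants without the transgene, no input and no wild type were used here.

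Depth differed widely, from 115868 reads in nuclear genes in S5P induced replicate 2 to 2537034 in S2P mock replicate 3, and the 41 members together held 153 to 3055 reads per library. Values are given as CPM, the usual scaling of a gene's reads by the library's total over nuclear genes, where 3 reads correspond to 1.18 CPM in the deepest library and 25.9 CPM in the shallowest. CPM was not scaled to gene length, so levels are compared between libraries and not between genes. TFIIS (AT2G38560) had 18.8 to 67.7 CPM in S2P mock and 61.8 to 125 CPM in S2P induced libraries. For S5P it had 46.9 to 58.9 CPM in mock and 156, 43.2 and 179 CPM in induced replicates 1 to 3. S5P induced replicate 2 was thus not above the S5P mock libraries. Since 1 read is 8.63 CPM in this library, it cannot be told from the lowest of them. The induced replicates were unlike each other in the balance of the windows. The share of TSS reads among TSS and gene body reads of all genes was 26.0%, 23.3% and 27.1% in S2P induced replicates 1 to 3 and 24.9%, 33.7% and 23.0% in S5P induced replicates 1 to 3, against 20.4% to 23.4% in the mock libraries. Markers of leaf (11 genes, summed level 482 to 1656 CPM per library), of root (15 genes, 318 to 612 CPM) and genes silent in seedlings (21 reproductive and seed genes, 214 to 523 CPM) all had reads, so reads at a gene do not by themselves show transcription.

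The summed polymerase level of the tau genes was higher in induced than in mock libraries with both antibodies, and 3 genes made up most of the difference. The summed S2P level of the 28 tau genes was 631, 510 and 514 CPM in mock and 1370, 770 and 1179 CPM in induced libraries, a 2.01-fold higher mean (552 ± 69.0 against 1106 ± 306 CPM, SD, n = 3). With S5P the sums were 692, 521 and 507 CPM in mock and 1090, 2063 and 859 CPM in induced libraries, a 2.33-fold higher mean. The highest of these, 2063 CPM, was in S5P induced replicate 2, where TFIIS was not above the S5P mock libraries. Every induced library was above every mock library of its antibody. GSTU1, GSTU11 and GSTU22, picked after their values were seen, made up 70.5% of the difference for S2P and 69.2% for S5P. The other 25 tau genes summed to 375, 406 and 381 CPM in S2P mock and 592, 586 and 475 CPM in S2P induced libraries (1.42-fold). For S5P these 25 summed to 487, 386 and 414 CPM in mock and 688, 656 and 648 CPM in induced libraries (1.55-fold), so that the groups were separate without the 3 genes too. Not all tau genes were part of it: the summed means of GSTU13 and GSTU14 were 0.768 and 0.516 times the mock level for S2P and S5P, those of GSTU15 and GSTU16 0.729 and 0.85 times, and those of GSTU17 and GSTU18 0.638 and 0.908 times. In S5P induced replicate 2 each pair was at 8.63 CPM, which is 1 read. In S5P induced replicates 1 and 3, GSTU15 and GSTU16 summed to 34.0 and 25.3 CPM (mock mean 26.6 CPM). GSTU17 and GSTU18 summed to 26.1 and 20.9 CPM there (mock mean 20.4 CPM). Within the pairs, mean CPM was higher in induced plants for GSTU14 and GSTU15 with S2P and for GSTU17 with S5P, and lower otherwise. The 13 phi genes together had closer sums, although GSTF4 to GSTF7 alone were 2.34-fold and 2.43-fold higher for S2P and S5P. The S2P sums of the phi genes were 388, 286 and 521 CPM in mock and 480, 616 and 228 CPM in induced libraries (1.11-fold). For S5P the phi sums were 487, 311 and 814 CPM in mock and 623, 380 and 721 CPM in induced libraries (1.07-fold), and mock and induced libraries overlapped with both antibodies. The 12 genes of the other classes (zeta, theta, lambda, dehydroascorbate reductases and TCHQD) summed to 279 ± 40.5 CPM in S2P mock and 261 ± 71.5 CPM in S2P induced libraries, and to 307 ± 17.9 and 257 ± 127 CPM for S5P (SD, n = 3). The 11 genes of glutathione synthesis, recycling and conjugate transport had summed means 1.51-fold higher for S2P and 1.56-fold higher for S5P. For S2P these were 1194 ± 110 CPM in mock and 1802 ± 192 CPM in induced libraries (SD, n = 3). Most of the difference lay in ABCC3, described below, and GSH1, both picked after their values were seen, so it was not a rise of the whole set. GSH1 had 425, 255 and 352 CPM in S2P mock and 686, 284 and 718 CPM in S2P induced libraries. With S5P it had 369, 265 and 375 CPM in mock and 437, 1044 and 278 CPM in induced libraries. The 10 genes made up of TGA factors, SCL14 and known co-targets were 1.69-fold and 1.65-fold higher. Most of that difference lay in AT2G04070 and UGT74E2, which were put in the list with their result known. The level and separation of this sum thus depend on that choice and are no separate support. In both sets every induced library was above every mock library of its antibody. These sums are descriptions and were given no test. Summed leaf markers averaged 881 CPM in S2P mock and 719 CPM in S2P induced libraries, and 989 and 637 CPM for S5P, while root markers averaged 463 and 340 CPM, and 535 and 403 CPM. Their part in the class sums was not tested.

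**Figure D1:**
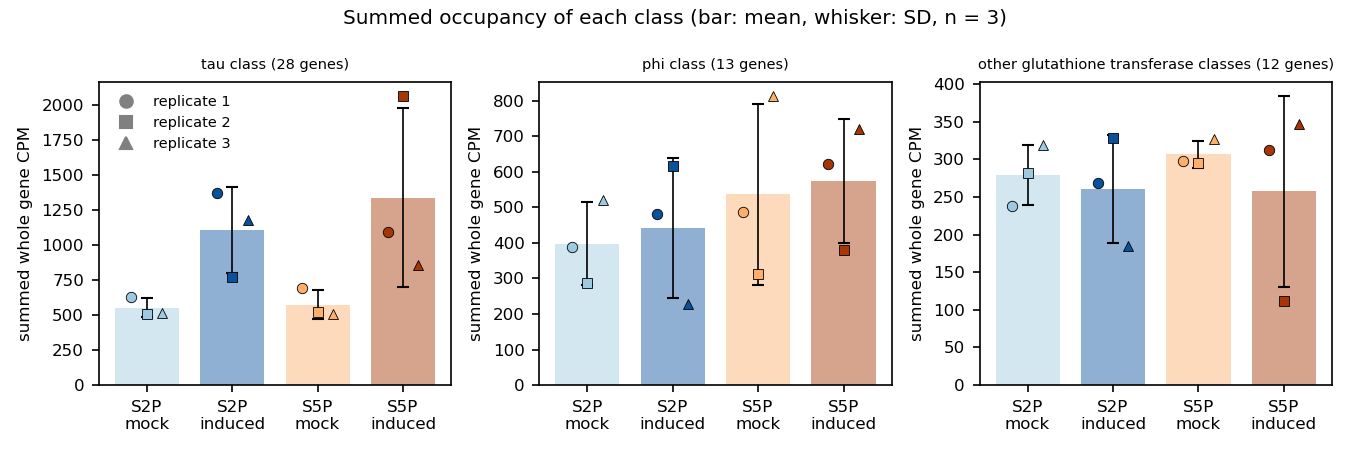
Summed whole gene CPM of the tau class, the phi class and the other glutathione transferase classes in each library (points), with the group mean (bar) and SD (whisker, n = 3). The 3 induced tau sums lie above the 3 mock sums for each antibody, while the phi sums and those of the other classes overlap between mock and induced.

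Gene by gene, most members tested had positive log2 fold changes, and no member passed the threshold. In edgeR's quasi-likelihood test of S2P occupancy over 18798 genes, 3 genes (0.016%) had an adjusted p under 0.05 and none of the 26 members tested was among them. Of these 26, 21 had a positive log2 fold change with a median of 0.80, against 53% of all genes tested and a median of 0.04. An unadjusted p under 0.05 with a higher level was found for 11 members and for 5.19% of all genes, and 0 members had such a p with a lower level (2.46% of all genes). All 3 induced libraries were above all 3 mock libraries for 5 members and 3.41% of all genes, and below for 0 members and 9.31% of all genes. For S5P, 0 of 21954 genes (0%) passed in edgeR; 1647 had an unadjusted p under 0.05, 93 passed in DESeq2 and 0 in limma voom. There 26 of 32 members tested were positive with a median log2 fold change of 0.61, against 49.3% of genes and a median of -0.01, and 10 members were higher at an unadjusted p under 0.05 (4.31% of genes) and 0 lower (3.19%). Groups did not overlap, with induced higher, for 6 members (2.95% of genes), and with induced lower for 0 (13.7%). The filter on low counts took out 15 members for S2P and 9 for S5P, so these counts do not speak for all 41. A gene could pass the filter through its induced libraries alone, as GSTU12 did with both antibodies, which can favour members higher in induced plants. A fitted log2 fold change weighs libraries by depth, and its sign differed from that of the difference in mean CPM for 1 member in S2P (GSTF11) and for 6 in S5P (GSTU2, GSTU5, GSTU16, GSTU23, GSTF3 and GSTF9). By mean CPM, induced plants were higher for 20 of the 26 members tested with S2P and 22 of the 32 with S5P. Over all 41 members, with or without enough reads for a test, they were higher for 27 with S2P and 24 with S5P. By class, 17 of 19 tau genes tested were positive for S2P (median 1.21) and 20 of 23 for S5P (median 0.73), while 4 of 7 phi genes (median 0.05) and 6 of 9 (median 0.41) were. DESeq2 called GSTU11, GSTU22 and GSTF7 for S2P (0.426% of genes called) and these with GSTU9 and GSTU24 for S5P (0.424%). With no filter on low counts edgeR called 5 members for S2P (0.223% of genes), GSTU9, GSTU11, GSTU12, GSTU22 and GSTU25, and GSTU9 for S5P (0.0866%). With all 12 libraries in one fit it called GSTU9 and GSTU24 for S5P (0.134%). In each of these fits the called members were higher in induced plants.

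**Figure D2:**
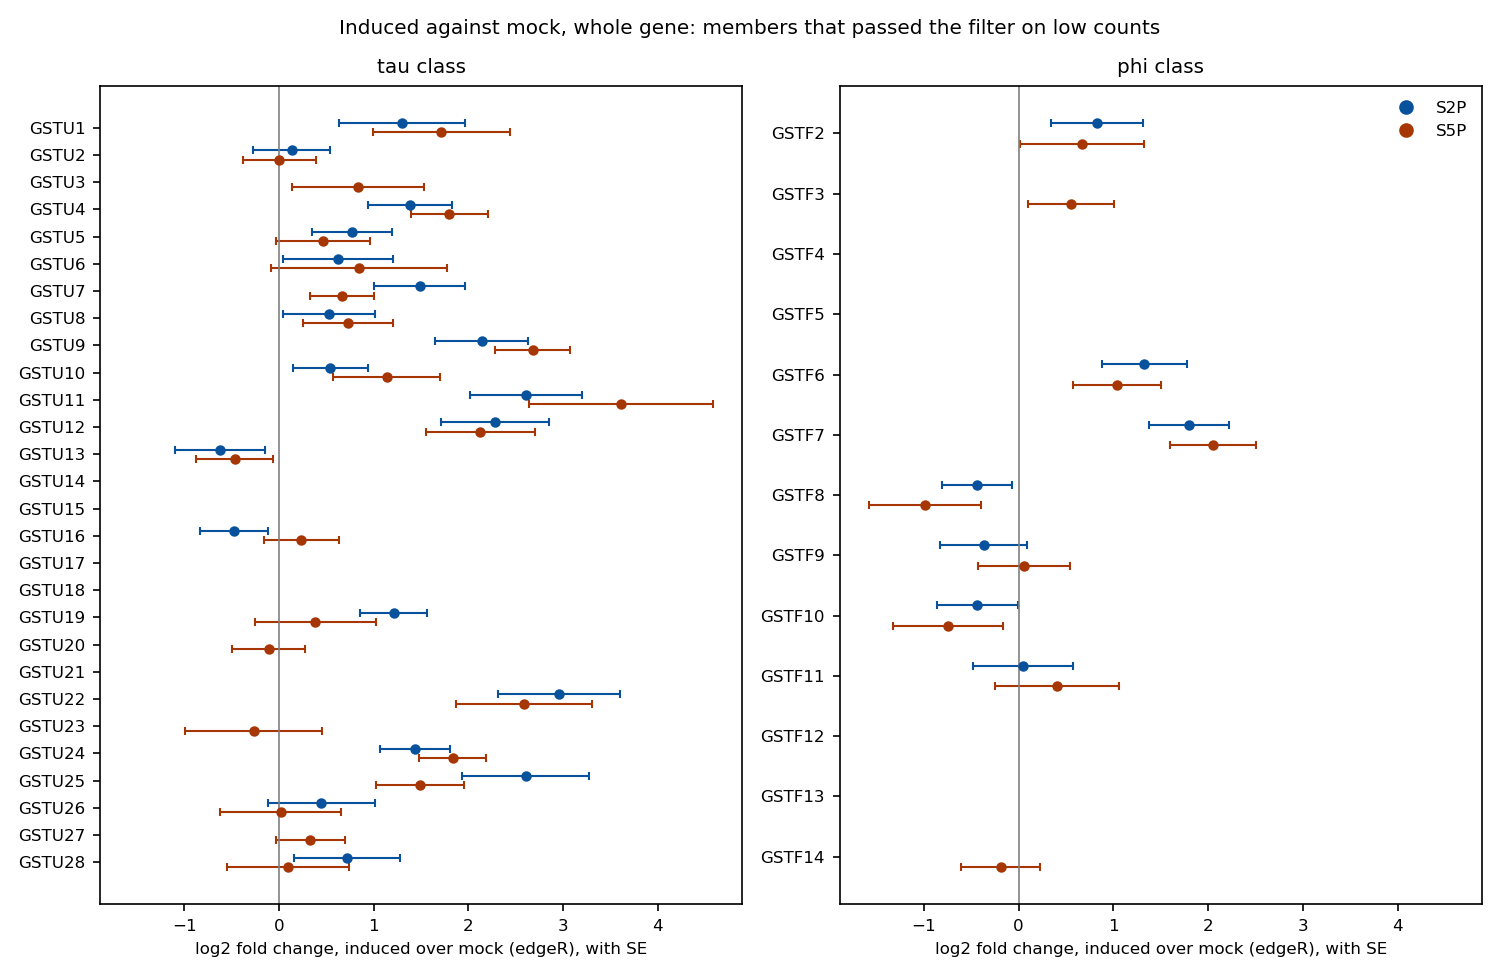
Log2 fold change of induced over mock (horizontal axis, with its SE) for each tau gene (left) and phi gene (right) that passed the filter on low counts, for S2P (blue) and S5P (orange), from edgeR fits on 6 libraries each. Most tau points lie right of 0 with both antibodies, GSTU11 for S5P lies farthest right at 3.61, and GSTF8 for S5P farthest left at -0.99.

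GSTU9 had the lowest adjusted p of any member for S5P, and GSTU24 and GSTF7 were separate between mock and induced libraries with both antibodies. GSTU9 (AT5G62480) had 25.0, 15.6 and 8.28 CPM in the S2P mock libraries and 42.4, 64.8 and 19.0 CPM in the induced ones. For S5P it had 14.3, 11.0 and 11.0 CPM in mock and 70.4, 34.5 and 89.4 CPM in induced libraries. All S5P induced libraries were above all mock libraries, whereas the lowest S2P induced library fell within the mock range. The 34.5 CPM of S5P induced replicate 2 were 4 reads. Its log2 fold change was 2.14 (SE 0.49, edgeR adjusted p = 0.199) for S2P and 2.68 (SE 0.40, adjusted p = 0.0853) for S5P. Over 15 alternative settings the S5P value stayed between 2.45 and 2.81 with adjusted p from 0.000361 to 0.907, past the threshold in 4 of them. GSTU24 (AT1G17170), known for conjugating the explosive trinitrotoluene in Arabidopsis, had 12.5, 20.8 and 16.2 CPM in S2P mock and 42.4, 37.2 and 38.0 CPM in S2P induced libraries. Its S5P values were 20.7, 16.5 and 12.5 CPM in mock and 57.0, 34.5 and 55.1 CPM in induced libraries, where 34.5 CPM were again 4 reads. The groups were separate with both antibodies, with log2 fold changes of 1.44 (SE 0.37, edgeR adjusted p = 0.269) and 1.84 (SE 0.35, adjusted p = 0.197). GSTF7 (AT1G02920), a salicylate-responsive phi gene, had 50.0, 20.8 and 22.1 CPM in S2P mock and 98.1, 89.9 and 57.0 CPM in S2P induced libraries. With S5P it had 25.5, 19.3 and 39.9 CPM in mock and 94.6, 112 and 116 CPM in induced libraries. Here too the groups were separate, with log2 fold changes of 1.80 (SE 0.42, edgeR adjusted p = 0.210) and 2.05 (SE 0.45, adjusted p = 0.301). The S2P value of GSTF7 was 1.16 without S2P mock replicate 3, the deepest library.

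GSTU11, GSTU22 and GSTU1 had the largest differences in CPM, and these were uneven among the induced replicates. GSTU11 (AT1G69930) had 31.3, 41.7 and 37.1 CPM in S2P mock and 228, 67.4 and 285 CPM in S2P induced libraries. Its S5P level was 30.2, 44.1 and 22.7 CPM in mock and 115, 725 and 64.8 CPM in induced libraries. The groups were separate with both antibodies, but S5P induced replicate 2 was more than the other induced libraries together. The log2 fold changes were 2.61 (SE 0.59, edgeR adjusted p = 0.198) and 3.61 (SE 0.97, adjusted p = 0.430), and the S5P value was 1.67 without that library. GSTU22 (AT1G78340) had 31.3, 20.8 and 21.7 CPM in S2P mock and 239, 44.1 and 181 CPM in S2P induced libraries. For S5P it had 43.0, 19.3 and 19.6 CPM in mock and 146, 250 and 38.0 CPM in induced libraries. Its S2P groups were separate, and for S5P the lowest induced library fell within the mock range. Its log2 fold changes were 2.96 (SE 0.65, edgeR adjusted p = 0.188) and 2.59 (SE 0.72, adjusted p = 0.457), and 1.85 for S5P without S5P induced replicate 2. GSTU1 (AT2G29490) had 194, 41.7 and 73.7 CPM in S2P mock and 311, 72.6 and 238 CPM in S2P induced libraries. Its S5P values were 132, 71.7 and 50.9 CPM in mock and 141, 432 and 108 CPM in induced libraries, so its groups overlapped with both antibodies. GSTU1 was 2.46-fold higher for S2P (SE 0.67 on the log2 scale, edgeR adjusted p = 0.662) and had a log2 fold change of 1.71 for S5P (SE 0.72, adjusted p = 0.649). The S5P value of GSTU1 was 0.68 without S5P induced replicate 2. On the same scale its S2P value was 2.05 without S2P mock replicate 1, the mock library where it was highest, but 0.76 without S2P induced replicate 1.

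GSTU4, GSTU7, GSTU12, GSTU19, GSTU25 and GSTF6 completed the members with an unadjusted p under 0.05 for either antibody. GSTU4 (AT2G29460) had 12.5, 20.8 and 12.2 CPM in S2P mock and 27.3, 47.6 and 9.50 CPM in S2P induced libraries, and 11.1, 8.27 and 15.7 CPM in S5P mock and 34.0, 17.3 and 55.9 CPM in S5P induced ones. The groups were separate for S5P alone, with log2 fold changes of 1.39 (SE 0.45, edgeR adjusted p = 0.447) for S2P and 1.80 (SE 0.41, adjusted p = 0.317) for S5P. That separation rested on 2 reads in S5P induced replicate 2 (17.3 CPM), where 3 reads correspond to 25.9 CPM. GSTU12 (AT1G69920), the tandem neighbour of GSTU11, had 0, 26.0 and 4.34 CPM in S2P mock and 27.9, 28.5 and 23.8 CPM in S2P induced libraries, and 9.55, 8.27 and 5.48 CPM in S5P mock and 29.7, 77.7 and 19.4 CPM in S5P induced ones. It too was separate for S5P alone, and its log2 fold changes were 2.28 (SE 0.57, edgeR adjusted p = 0.254; 2.90 without S2P mock replicate 2) and 2.13 (SE 0.57, adjusted p = 0.426). GSTU25 (AT1G17180), which like GSTU24 acts on trinitrotoluene, had 6.25, 15.6 and 3.15 CPM in S2P mock and 37.6, 17.3 and 4.75 CPM in S2P induced libraries. In S5P libraries it had 6.36, 11.0 and 12.5 CPM in mock and 35.8, 0 and 24.6 CPM in induced plants, where 0 allows up to 25.9 CPM. Its groups overlapped, with log2 fold changes of 2.60 (SE 0.67, edgeR adjusted p = 0.269) and 1.49 (SE 0.46, adjusted p = 0.562).

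GSTU19 (AT1G78380), one of the most abundant tau enzymes of seedlings, had 43.8, 26.0 and 43.4 CPM in S2P mock and 70.9, 102 and 66.5 CPM in S2P induced libraries. For S5P the values were 92.3, 38.6 and 66.5 CPM in mock and 113, 0 and 98.4 CPM in induced libraries, where 0 again allows up to 25.9 CPM. S2P groups were separate (log2 fold change 1.21, SE 0.36, edgeR adjusted p = 0.390) and S5P groups were not (0.38, SE 0.64, adjusted p = 0.894). GSTU7 (AT2G29420) had 18.8, 10.4 and 7.49 CPM in S2P mock and 25.4, 25.1 and 4.75 CPM in S2P induced libraries. Its S5P values were 28.6, 19.3 and 17.2 CPM in mock and 35.2, 17.3 and 31.3 CPM in induced libraries, with log2 fold changes of 1.49 (SE 0.48, edgeR adjusted p = 0.446) and 0.67 (SE 0.34, adjusted p = 0.673). GSTF6 (AT1G02930), which takes part in camalexin synthesis, had 18.8, 20.8 and 36.3 CPM in S2P mock and 66.0, 98.6 and 19.0 CPM in S2P induced libraries. With S5P it had 47.7, 30.3 and 67.3 CPM in mock and 92.8, 43.2 and 125 CPM in induced libraries, and log2 fold changes were 1.33 (SE 0.45, edgeR adjusted p = 0.479) and 1.04 (SE 0.46, adjusted p = 0.657). Both genes had overlapping groups with both antibodies, and in both the shallow libraries (S2P induced replicate 3, S5P induced replicate 2) were the low ones. GSTF6 and GSTF7 are close copies of each other, as are GSTF2 and GSTF3, and how reads shared by such copies were divided is not visible in the counts.

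The lowest log2 fold changes belonged to GSTU13 for S2P and GSTF8 for S5P. GSTU13 (AT1G27130) had 31.3, 5.21 and 41.4 CPM in S2P mock and 15.7, 27.7 and 4.75 CPM in S2P induced libraries, and 20.7, 35.8 and 48.5 CPM in S5P mock and 22.4, 8.63 and 29.8 CPM in S5P induced ones. Its log2 fold changes were -0.62 (edgeR adjusted p = 0.755) and -0.47 (adjusted p = 0.782), with overlapping groups. GSTF8 (AT2G47730), a chloroplast-targeted phi enzyme long used as an oxidative stress marker in Arabidopsis, had 68.8, 41.7 and 96.6 CPM in S2P mock and 43.6, 60.5 and 38.0 CPM in S2P induced libraries. For S5P it had 82.7, 63.4 and 193 CPM in mock and 78.2, 8.63 and 55.1 CPM in induced libraries. The groups overlapped, with log2 fold changes of -0.44 (edgeR adjusted p = 0.779) and -0.99 (adjusted p = 0.701), and -0.32 for S5P without S5P mock replicate 3, where it was highest.

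**Figure D3:**
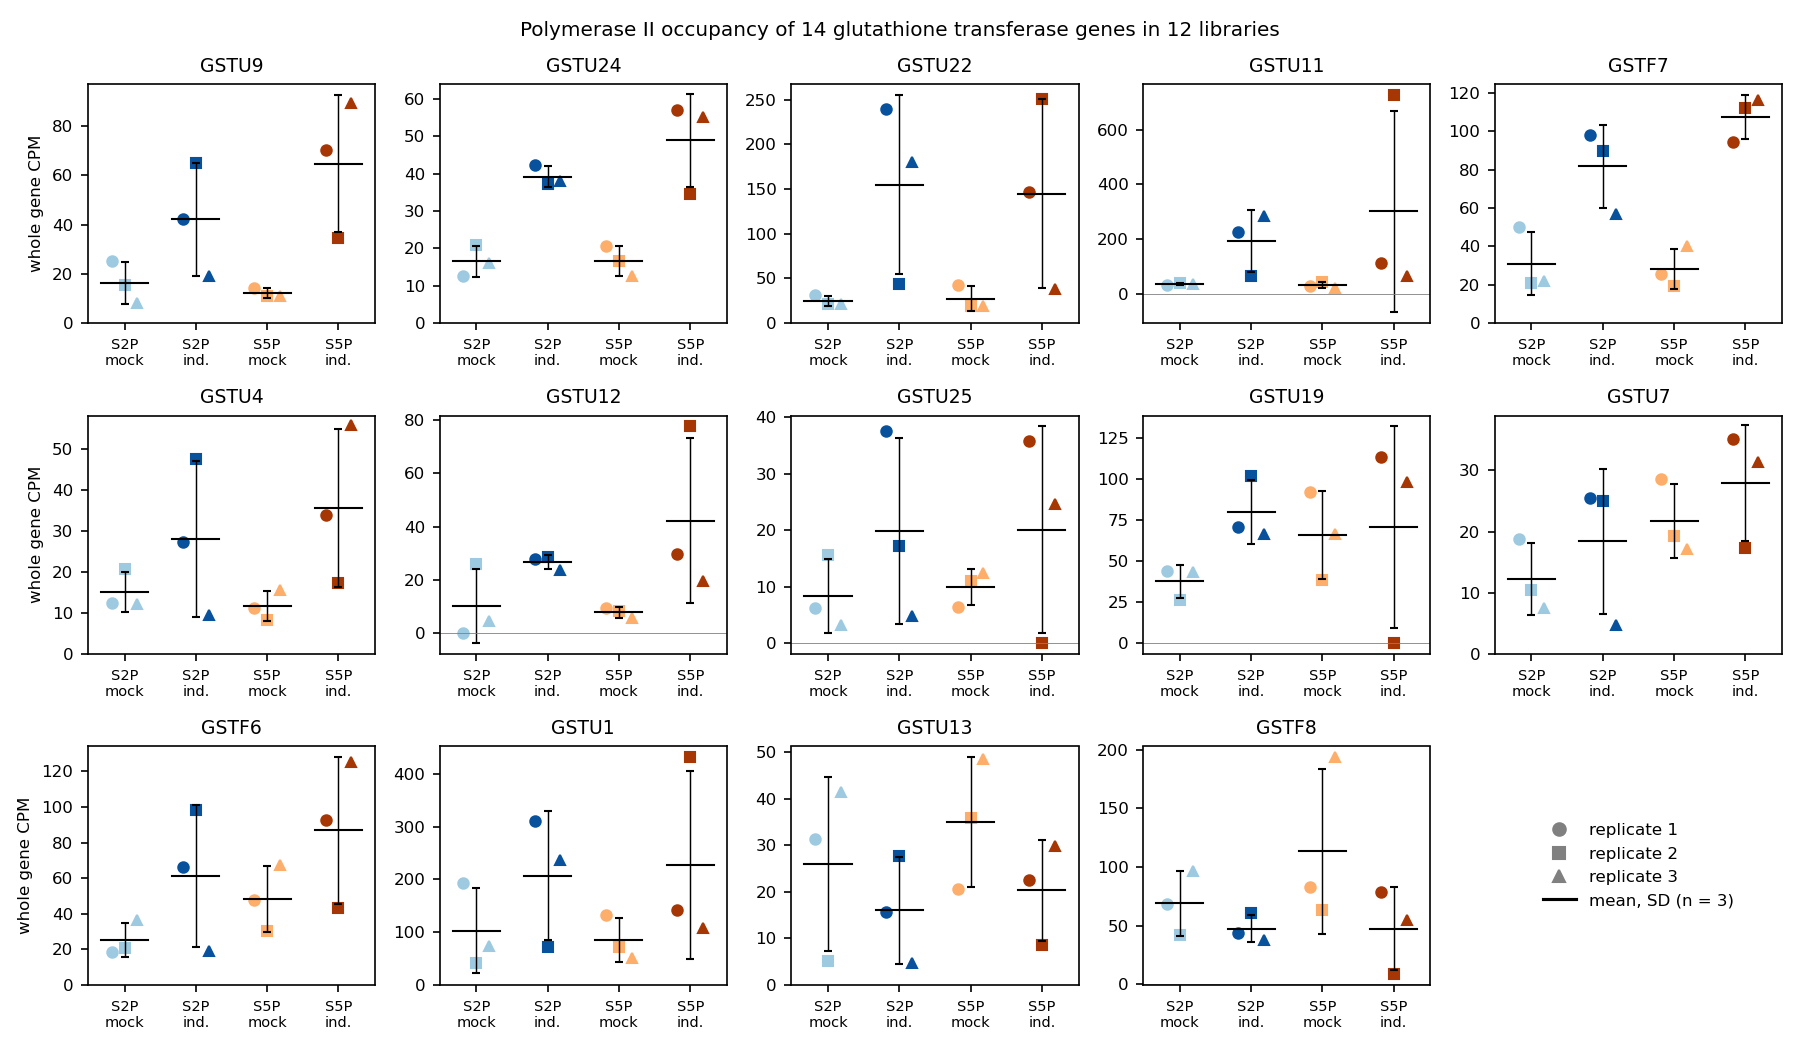
Whole gene CPM of the 14 members described by library, in the 4 groups (mock in light, induced in dark colour); circles, squares and triangles are replicates 1, 2 and 3, and the black line and whisker are the mean and SD (n = 3). GSTU24, GSTF7 and GSTU11 are separate between mock and induced with both antibodies. For S5P the square, induced replicate 2, lies far above the other induced points of GSTU11 and GSTU1.

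The 9 tandem clusters that hold 29 of the 41 genes differed among themselves in log2 fold change. In the largest, GSTU1 to GSTU7 on chromosome 2, all 6 members tested for S2P (0.14 to 1.49) and all 7 for S5P (0.01 to 1.80) had a positive fitted value, with GSTU2 lowest for both antibodies. For S5P the mean CPM of GSTU2 (20.1 in mock, 13.2 in induced plants) and of GSTU5 (19.1 and 17.2) was lower in induced plants, where S5P induced replicate 2 had no read for either. In GSTU11 to GSTU12 both were positive with both antibodies (2.13 to 3.61). In GSTU24 to GSTU26 all 3 were positive, from 0.45 to 2.60 for S2P and from 0.02 to 1.84 for S5P, with GSTU26 lowest. The GSTU19 to GSTU23 cluster was mixed: for S5P, GSTU20, known to bind the jasmonate-conjugating enzyme, and GSTU23 had -0.11 and -0.27 beside 2.59 for GSTU22, although the mean CPM of GSTU23 was higher in induced plants (9.96 and 21.2). In GSTF4 to GSTF7 the 2 members tested, GSTF6 and GSTF7, were positive with both antibodies. GSTF9 and GSTF10, a phi cluster of constitutively expressed genes, had -0.36 and -0.43 for S2P and 0.06 and -0.74 for S5P, where the mean CPM of GSTF9 was 83.0 in mock and 75.2 in induced plants. GSTU16 of GSTU15 to GSTU16 had -0.47 and 0.24, the second beside a lower mean in induced (18.6 CPM) than in mock plants (21.8 CPM). None of these cluster members passed the threshold.

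Among members outside clusters besides GSTU9, GSTU8, GSTU10, GSTU28, GSTF2 and GSTF11 had positive fitted values with both antibodies, at 0.05 to 0.83 for S2P and 0.10 to 1.14 for S5P. The 0.05 belonged to GSTF11, which had 50.0, 41.7 and 42.2 CPM in S2P mock and 69.7, 15.6 and 19.0 CPM in S2P induced libraries, a lower mean (44.6 and 34.7 CPM). GSTF2, an enzyme that binds camalexin and other plant indoles, had 0.83 (SE 0.48) and 0.67 (SE 0.65). For S5P alone GSTU27, GSTF3 and GSTF14 had 0.33, 0.56 and -0.19, where the mean of GSTF3 was 10.3 CPM in induced against 10.9 CPM in mock plants. The members that did not pass the filter for either antibody were GSTU14, GSTU15, GSTU17, GSTU18, GSTU21, GSTF4, GSTF5, GSTF12 and GSTF13. They include GSTU17, known from abscisic acid and light signalling, and GSTF12, the anthocyanin transport gene TT19. GSTF4 had no whole gene read in 7 of 12 libraries and at most 3.03 CPM in the others. Its TSS and gene body windows held 43 reads in mock and 46 in induced plants against 5 and 8 whole gene reads, and it overlaps the annotated gene AT1G02952. For S2P alone GSTU3, GSTU20, GSTU23, GSTU27, GSTF3 and GSTF14 also did not pass. By annotation 12 of the 41 genes overlap another gene, and since strand use is not given, reads of overlapping genes may be shared.

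The induced replicates fell into different patterns for different members, a description made after the values were seen. GSTU1, GSTU6, GSTU11, GSTU22, GSTU23, GSTU26, GSTU28, GSTF11 and GSTF12 were lowest in replicate 2 of the S2P induced libraries and highest in replicate 2 of the S5P induced libraries. GSTU6, for example, had 44.2, 8.65 and 38.0 CPM in S2P induced replicates 1 to 3 and 23.0, 155 and 6.71 CPM in the S5P induced ones, against 12.5 to 31.2 CPM in the mock libraries. A further 18 members, among them GSTU4, GSTU9, GSTU19, GSTF2 and GSTF6, had the opposite order, highest in S2P induced replicate 2 and lowest in S5P induced replicate 2. GSTF2 had 78.7, 144 and 33.3 CPM in S2P induced replicates 1 to 3 and 119, 25.9 and 192 CPM in the S5P induced ones. Among genes with 100 or more reads over all libraries, the first order was found in 8 of 34 members and in 14.1% of 23081 genes, and the second in 15 of 34 members and 47.2% of genes. The second order was thus common in the series at large. The first order was also that of the summed 21 reproductive and seed genes silent in seedlings, though not of each gene. By replicate their sum was 321, 246 and 523 CPM (S2P induced) and 335, 432 and 214 CPM (S5P induced). The mean of this sum was 0.88 (S2P) and 0.85 (S5P) times its mock level. Whether the first order reflects a response of the transferase genes was not tested. The libraries where the first 9 members were high were mostly those with the higher shares of TSS reads over all genes, 26.0% and 27.1% for S2P and 33.7% for S5P. They also had more reads outside genes, 28.2% and 33.4% against 20.3% for S2P, and 38.6% against 22.2% and 16.1% for S5P. The part of these library properties in the members' values was not tested. S5P induced replicate 2 had no read at all for 14 of the 41 members, 10 of them tau genes, and S2P induced replicate 3 none for 5 members. Without S5P induced replicate 2, edgeR called 7 members for S5P among 302 of 26076 genes (1.16%): GSTU4, GSTU9, GSTU11, GSTU12, GSTU24, GSTU25 and GSTF7, all higher in induced plants. Without S2P induced replicate 2 it called GSTU11, GSTU22 and GSTF7 for S2P, but 525 of only 6849 genes tested (7.67%) passed there. Without S2P induced replicate 3 it called GSTU9 for S2P, with 0.16% of genes.

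**Figure D4:**
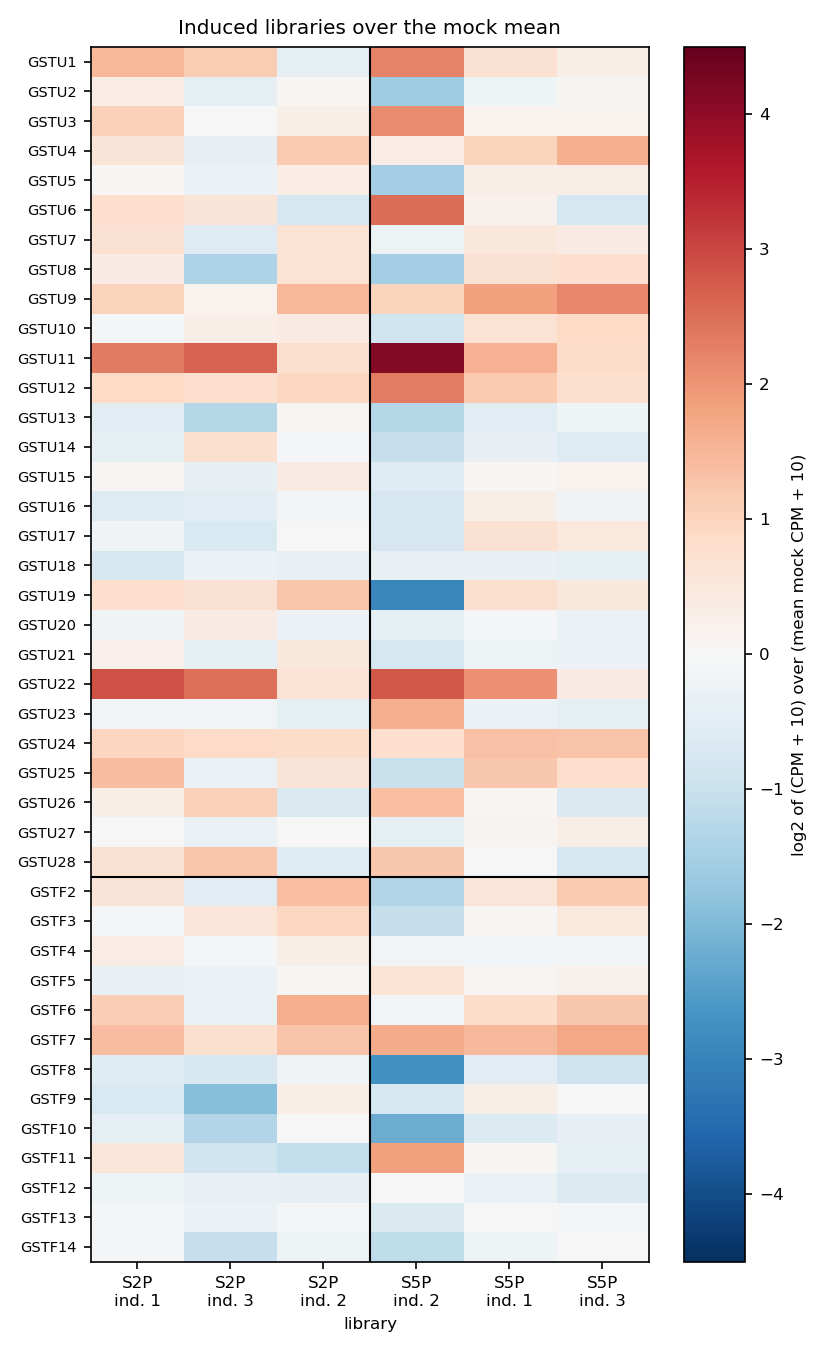
Each induced library over the mean of the 3 mock libraries of its antibody, as log2 of CPM with 10 CPM added to both, for all 41 members (rows; tau above the line, phi below). Columns are ordered so that libraries with the higher TSS shares stand left for each antibody; GSTU11 reaches 4.12 in S5P induced replicate 2, where GSTU19 and GSTF8 are at -2.92 and -2.73.

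Reads of the tau and phi genes lay more often in the TSS window than those of most genes. Over all 12 libraries, 35 members had 100 or more reads in the TSS and gene body windows, and the median share in the TSS window was 44.3% for these, against 22.3% for 23880 genes with as many reads. It was 44.9% for 25 tau genes and 37.8% for 10 phi genes. Pooled over all members, the share was 38.1%, 46.5% and 37.2% in S2P mock and 51.5%, 43.7% and 54.6% in S2P induced libraries, and 40.2%, 41.4% and 34.0% in S5P mock and 46.9%, 65.2% and 40.2% in S5P induced ones. In each of the 12 libraries that is above the share over all genes. No source used here gives the window bounds, and gene length was not compared, so its part in this difference was not tested. TSS and gene body reads added up to more than the whole gene reads in 41 of 41 members, and the reason was not tested.

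Members ranged from 1.75% (GSTF8) to 92.8% (GSTU22), and 4 were over 75%, against 2.12% of genes. GSTU22 had 4, 4 and 50 TSS reads in S2P mock and 386, 42 and 38 in S2P induced libraries, with 1, 0 and 6 gene body reads in mock and 11, 11 and 0 in induced libraries. Nearly all of its polymerase signal thus lay in the TSS window in mock (90.5% over 6 libraries) and induced plants (93.1%). GSTU11 was at 73.3% in mock and 84.6% in induced plants, GSTU6 at 73.2% and 88.1%, and GSTF11 at 86.7% and 88.5%. GSTU1 was the opposite, at 16.8% and 15.7%: its gene body held 535, 67 and 68 reads in the S2P induced libraries against 46, 25 and 1 in the TSS window. GSTU9 (53.1% and 52.6%), GSTF7 (37.9% and 37.3%) and GSTU19 (28.0% and 30.3%) had about the same share in mock and induced plants, while GSTU12 had 42.4% of 33 window reads in mock and 75.9% of 174 in induced plants. These pooled shares weigh the deep libraries most. GSTF8 overlaps the annotated gene AT2G47720. GSTU2, which overlaps AT2G29485, had 172 TSS reads but 119 whole gene reads in induced plants. It and GSTF4 were the 2 members with more TSS than whole gene reads, and how reads of overlapping genes were counted in each window was not tested.

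**Figure D5:**
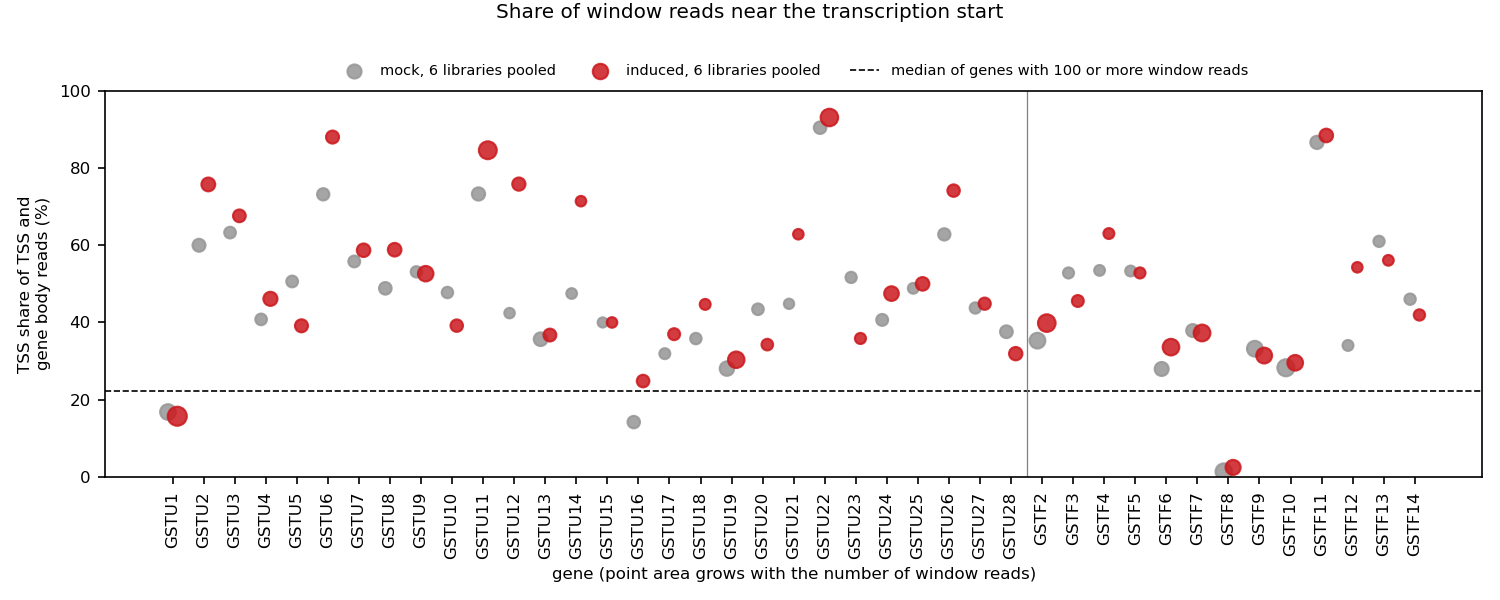
TSS window reads as a percentage of TSS and gene body reads for each of the 41 members, pooled over the 6 mock (grey) and 6 induced (red) libraries; the dashed line is the median over genes with 100 or more window reads, 22.3%, and larger points have more reads. GSTU22 and GSTF11 lie near the top and GSTF8 at the bottom in both conditions.

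Tested on each window alone, no member passed, and few had enough TSS reads to be tested. For S2P in the TSS window, 14 members were tested and 0 of 3215 genes passed in edgeR (0%). An unadjusted p under 0.05 was reached by 109 genes; 3 members reached it with a higher level, as did 2.08% of genes. The smallest p among members belonged to GSTU22 (log2 fold change 2.22), GSTU12 (2.65) and GSTU11 (2.07), each with an adjusted p of 0.996. GSTU12 passed the filter on low counts there through its induced libraries. In the S2P gene body 1 of 15968 genes (0.00626%) passed, and 6 of 14 members tested were higher at an unadjusted p under 0.05 (4.18% of genes). There GSTF7 had 1.60 (edgeR adjusted p = 0.337), GSTU4 1.48 (0.413) and GSTU11 1.20 (0.515). For S5P in the TSS window, 18 members were tested with 0 of 5753 genes passing (0%), and 250 genes had an unadjusted p under 0.05. In that window 3 members were higher at such a p (1.18% of genes), namely GSTU12 (2.20), GSTU11 (2.39) and GSTU9 (1.94) at an edgeR adjusted p of 0.999. GSTU12 and GSTU9 passed the filter there through their induced libraries, so this count is no separate support. In the S5P gene body 0 of 18722 genes passed (0%; 1486 by unadjusted p, 54 in DESeq2), and 4 of 19 members tested were higher at an unadjusted p under 0.05 (4.49% of genes). The same limit held for GSTU9 and GSTU24, which passed the filter there through their induced libraries. GSTU9 had the smallest p there, at 2.67 (SE 0.38, edgeR adjusted p = 0.0654), followed by GSTU24 at 1.79 (0.153) and GSTF7 at 2.19 (0.164). DESeq2 called 2 of these, GSTU9 and GSTF7, with 0.288% of genes called. With no filter on low counts edgeR called all 3 (0.168% of genes), as it did without S5P induced replicate 2 (0.653%), and GSTU9 and GSTU25 in the S2P gene body (0.233%). Without S2P induced replicate 2 it called 1 member in the S2P gene body, where 10% of the genes tested passed.

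The balance of TSS and gene body reads within a gene was not shown to differ between mock and induced plants for any member. With each window scaled on its own, 7 members could be tested for S2P and 13 for S5P, and 0 of 2600 and 0 of 5066 genes passed in edgeR (0% in both; 40 and 79 genes had an unadjusted p under 0.05). GSTU1 had a log2 ratio change of -1.13 (SE 0.94), GSTU11 0.81 (SE 0.96) and GSTF2 -0.62 (SE 0.75) for S2P, all at an edgeR adjusted p of 0.999. For S5P the smallest p belonged to GSTF9 (-0.68, SE 0.48), GSTF7 (-0.86, SE 0.71) and GSTU19 (-0.45, SE 0.50), also at 0.999. With standard errors of this size only large shifts between the windows were detectable at this depth.

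Between the antibodies in mock plants, a difference was called for phi genes and for no tau gene, and this rested on pairing the libraries by replicate number. Without pairing, 0 of 16388 genes passed in edgeR (0%; 376 by unadjusted p under 0.05, 0 in DESeq2), 16 members were tested, and the smallest p belonged to GSTF11 (log2 of S5P over S2P -0.95, SE 0.29), GSTU19 (0.76, SE 0.33) and GSTF6 (0.74, SE 0.34). Same-numbered mock libraries moved together, and with the replicate number as a block edgeR called 238 genes (1.45%) and 5 of the 16 members, all phi genes. GSTF8, higher with S5P in all 3 pairs, had 0.89 (SE 0.21, adjusted p = 0.00535). GSTF6 (0.94, adjusted p = 0.0220), GSTF10 (0.75, adjusted p = 0.0330) and GSTF2 (0.76, adjusted p = 0.0351) were also higher with S5P in edgeR. GSTF11 was lower, at -0.97 (SE 0.28, edgeR adjusted p = 0.0461). Its values were 50.0, 41.7 and 42.2 CPM with S2P and 25.5, 19.3 and 21.1 CPM with S5P, so the groups were separate. The tau gene with the smallest p, GSTU19, had 0.72 (SE 0.23) and did not pass (edgeR adjusted p = 0.0958). It too was higher with S5P in all 3 pairs, and its value was close to the 0.75 of GSTF10, so a difference between the classes was not shown. GSTF11 overlaps the annotated gene AT3G03200. In induced plants, where the protein named by the labels also differs, 0 of 23364 genes (0%; 162 by unadjusted p under 0.05, 0 in DESeq2) and none of 35 members passed in edgeR. The smallest p there belonged to GSTF9 (0.81), GSTF5 (0.65) and GSTU9 (0.59), each with an adjusted p of 1.

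The response itself was not shown to differ between the antibodies for any member. The interaction term over all 12 libraries had 18 of 35 members positive, 0 members at an unadjusted p under 0.05, and 0 of 23793 genes past the threshold in edgeR (0%; 151 by unadjusted p under 0.05, 0 in DESeq2). The smallest p belonged to GSTU7 (-0.80, SE 0.59), GSTU16 (0.69, SE 0.53) and GSTU25 (-1.10, SE 0.90), at an edgeR adjusted p of 1. With standard errors of this size the test does not show that the responses were alike.

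Around the transferases, no gene that makes, recycles or transports glutathione or its conjugates passed, and the smallest p for S2P belonged to a transporter and a reductase. Of the 11 genes of glutathione synthesis, recycling and conjugate transport, 8 had a positive log2 fold change for S2P (median 0.18) and 7 for S5P (median 0.31), against medians of 0.04 and -0.01 over all genes, and 0 passed with either antibody. ABCC3, a vacuolar transporter of glutathione conjugates, had 200, 193 and 236 CPM in S2P mock and 632, 822 and 247 CPM in S2P induced libraries, with a log2 fold change of 1.60 (SE 0.62, edgeR adjusted p = 0.582). For S5P it had 216, 234 and 293 CPM in mock and 941, 164 and 1201 CPM in induced libraries (1.77, SE 0.80, adjusted p = 0.658 in edgeR), with S5P induced replicate 2 below every mock library. GR2, the glutathione reductase of plastids and mitochondria, had 43.8, 41.7 and 48.9 CPM in S2P mock and 69.1, 66.6 and 99.8 CPM in S2P induced libraries. Its groups were separate with both antibodies, at 0.92 (SE 0.36, edgeR adjusted p = 0.592) and 1.07 (SE 0.45, adjusted p = 0.649). The 12 genes of other transferase classes had 0 past the threshold, with medians of 0.20 for S2P (9 tested) and -0.05 for S5P, and an unadjusted p under 0.05 was found for S5P in DHAR2 (0.87), which recycles ascorbate, GSTL1 (1.02) and GSTZ2 (-1.18). Over all genes 4.31% were higher and 3.19% lower at such a p. In S5P induced replicate 2 DHAR2 was at 8.63 CPM, and GSTL1 and GSTZ2 had no read.

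Of 10 genes made up of TGA factors, SCL14 and known co-targets, 2 passed for S2P, where 0.016% of all genes did, and both were chosen with that result known. AT2G04070, a transporter gene of the MATE family, had 25.0, 15.6 and 19.7 CPM in S2P mock and 176, 161 and 166 CPM in S2P induced libraries (log2 fold change 3.27, SE 0.44, edgeR adjusted p = 0.0472). UGT74E2, a glucosyltransferase for indole-3-butyric acid, had 25.0, 15.6 and 17.7 CPM in mock and 113, 157 and 85.5 CPM in induced libraries (2.85, SE 0.41, adjusted p = 0.0472 in edgeR). These calls depended on the setting: of 15 alternatives, AT2G04070 passed in 7 and UGT74E2 in 5, with adjusted p up to 0.963 for both, and neither passed with the replicate block (adjusted p = 0.422 and 0.499) or without any one of S2P mock replicates 1 to 3 or S2P induced replicate 1. The log2 fold changes stayed between 2.96 and 3.41 for AT2G04070 and between 2.44 and 3.04 for UGT74E2. For S5P the log2 fold changes were 3.15 (edgeR adjusted p = 0.148) and 2.77 (adjusted p = 0.345), and UGT74E2 was at 8.63 CPM in S5P induced replicate 2. Of the factors themselves, TGA2, TGA5 and TGA6 had 0.43, -0.10 and 0.18 for S2P and 0.58, 0.42 and -0.44 for S5P, and SCL14 had 0.86 and 0.55. None of the 4 passed, and CYP81D11, another known target, had -0.11 and -0.12.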

How the data were processed

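Each of 12 libraries has deposited read counts per gene, whole numbers with no scaling, for the whole gene, the TSS window and the gene body. The submitters' processing notes name Trimmomatic, HTSeq and build TAIR10; no source used here gives versions, aligner, window bounds or strand use. The 5 summary lines per file and 279 organelle genes were left out: 74.7% to 96.7% of reads were not aligned, and 16.1% to 38.6% of counted alignments lay outside genes. Names and overlapping genes came from a RefSeq table of TAIR10.1, without coordinates. Tests were edgeR 4.0.16 quasi-likelihood fits in R 4.3.3 (TMM, filterByExpr with a minimum count of 10, Benjamini-Hochberg adjusted p under 0.05 over all nuclear genes tested), checked on simulated data; standard errors derive from the F statistic. DESeq2 1.42.0 and limma 3.58.1 were alternatives. Counting limits use 3 reads and cover counting error only. Nothing says that replicates are separate cultures, and p-values then cover only the spread among these samples, which may be technical. In mock plants same-numbered libraries of the antibodies deviated together (correlations 0.178, 0.287 and 0.438 over 16388 genes), so the numbers pair them there, on evidence from the data and not the labels. Members and gene lists were chosen with earlier results of these data known. Members with an unadjusted p under 0.05 in either antibody, and the lowest of each, are described by library; elsewhere the members that pass or else the 3 smallest p.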

Additional observations from a re-analysis of the deposited data

How the results depend on the processing

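Counts of members past the threshold depended on the tool, the filter and single libraries. For S2P whole gene the count of 0 became 3 with DESeq2 and 5 with no filter on low counts, and ranged from 0 to 3 when each replicate was left out. For S5P whole gene it became 2 with all 12 libraries in one fit, 5 with DESeq2 and 1 with no filter, and ranged from 0 to 7 over left-out replicates. In the gene body it became 2 for S2P with no filter (0 to 1 over left-out replicates), and for S5P 2 with DESeq2 and 3 with no filter (0 to 3). With the replicate block, 5 members passed for S5P against S2P in mock plants, and 0 in the induction comparisons, where the numbers do not pair libraries (correlations -0.248 to 0.0786 for S2P and 0.00209 to 0.315 for S5P); it moved the S2P count of genes from 3 to 0. The deposited files number the induced replicate 3 libraries 4, so this number may not match that of the mock libraries. Genes called in all were 80 (DESeq2), 72 (no filter), 8 (total counts) and 1 (limma voom) for S2P against 3, and 0 in 8 of 15 alternatives (RLE and upper quartile factors, replicate block, organelle genes kept and 4 of the left-out replicates). Directions that reversed were the interaction of GSTU25, 0.11 with the block and -1.52 to 0.0937 over left-out replicates, the S5P window ratio of GSTF7, -1.48 to 0.0171 over left-out replicates, and GSTU19 for S5P, -0.55 in limma voom; none of these had passed. The cause was not tested. Scaling by total counts moved the median of all genes to -0.13 for both antibodies and upper quartile factors to -0.17 for S5P, where the members' medians were 0.64, 0.51 and 0.45. The S2P window ratio tested no member without S2P mock replicate 3, S2P induced replicate 1 or S2P induced replicate 2. Shallow libraries, where 3 reads are up to 25.9 CPM, limit what can be said of single genes.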
